A study of Mus musculus with 2 samples.

Results

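The insulin-like growth factor (IGF) system was followed through the cells of the fracture callus, the repair tissue that bridges a broken bone. It was read in 10 genes of 32285 counted: the ligands Igf1 and Igf2, the receptors Igf1r and Igf2r, the binding proteins Igfbp3, Igfbp4, Igfbp5, Igfbp6 and Igfbp7, and the receptor adapter Irs1. The genes were chosen by symbol, and each symbol was found once in both count matrices. The cells came from 2 libraries, MGJ and MGJ2, of enzymatically dissociated calluses of wild-type C57BL/6J mice, 12-week-old males with a femoral fracture and no genetic change or drug. Calluses were taken 10 days (n = 5 mice) and 20 days (n = 5 mice) post fracture (dpf), but the labels give neither library its day. The barcodes do not tell the mice apart. MGJ and MGJ2 were therefore described side by side, with no comparison of time points and no test across samples.

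IGF1 and IGF2 are secreted growth factors that act through the receptor tyrosine kinase IGF1R. Its adapter IRS1 passes the signal on to the PI3K and AKT kinases. IGF2R, which also carries mannose 6-phosphate tagged enzymes to lysosomes, binds IGF2 and leads it to degradation. The binding proteins hold IGFs in the tissue, and proteases such as PAPP-A release the ligands by cutting them. In the growth plate, growth hormone and IGF1 are known to drive the proliferation and the enlargement of chondrocytes before cartilage is replaced by bone.

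After barcodes with few genes, many mitochondrial transcripts or a doublet call were removed, 13320 cells of MGJ (131606692 UMIs) and 7584 cells of MGJ2 (58108099 UMIs) were left. A UMI, or unique molecular identifier, counts 1 captured RNA molecule, so the level of a gene in a cell class was given as its UMIs per 1000000 UMIs of that class (counts per 1000000, CPM). Cells were named from marker genes, none of them an IGF gene, and the names carry the ending "-like". The libraries held different cells. MGJ had 2913 chondrocyte-like, 1342 fibroblast-like, 263 endothelial-like and 135 mural-like cells, whereas MGJ2 had 141, 10, 49 and 8 of these, and was mostly blood and marrow cells. In MGJ, 2603 cells (19.5%) stayed unnamed, most of them from 1 cluster with few UMIs led by Ccl3, Ccl4 and Tnf. That cluster scored highest for the neutrophil list, with 6 of its markers detected. It stayed unnamed for its low UMI count, with no marker of that list among its leading genes. Doublet calls (1.04% of barcodes in MGJ and 2.84% in MGJ2) stayed below the expected 10.8% and 6.24%, and 19 barcodes occurred in both libraries. In MGJ a sub-cluster of 235 chondrocyte-like and one of 168 fibroblast-like cells carried 14950 and 13440 CPM from the neutrophil marker list, against 242 to 1121 in the other sub-clusters of these classes. All intervals below are 95% intervals that cover counting error only, since each class was seen in 1 library at a time.

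**Figure D1:**
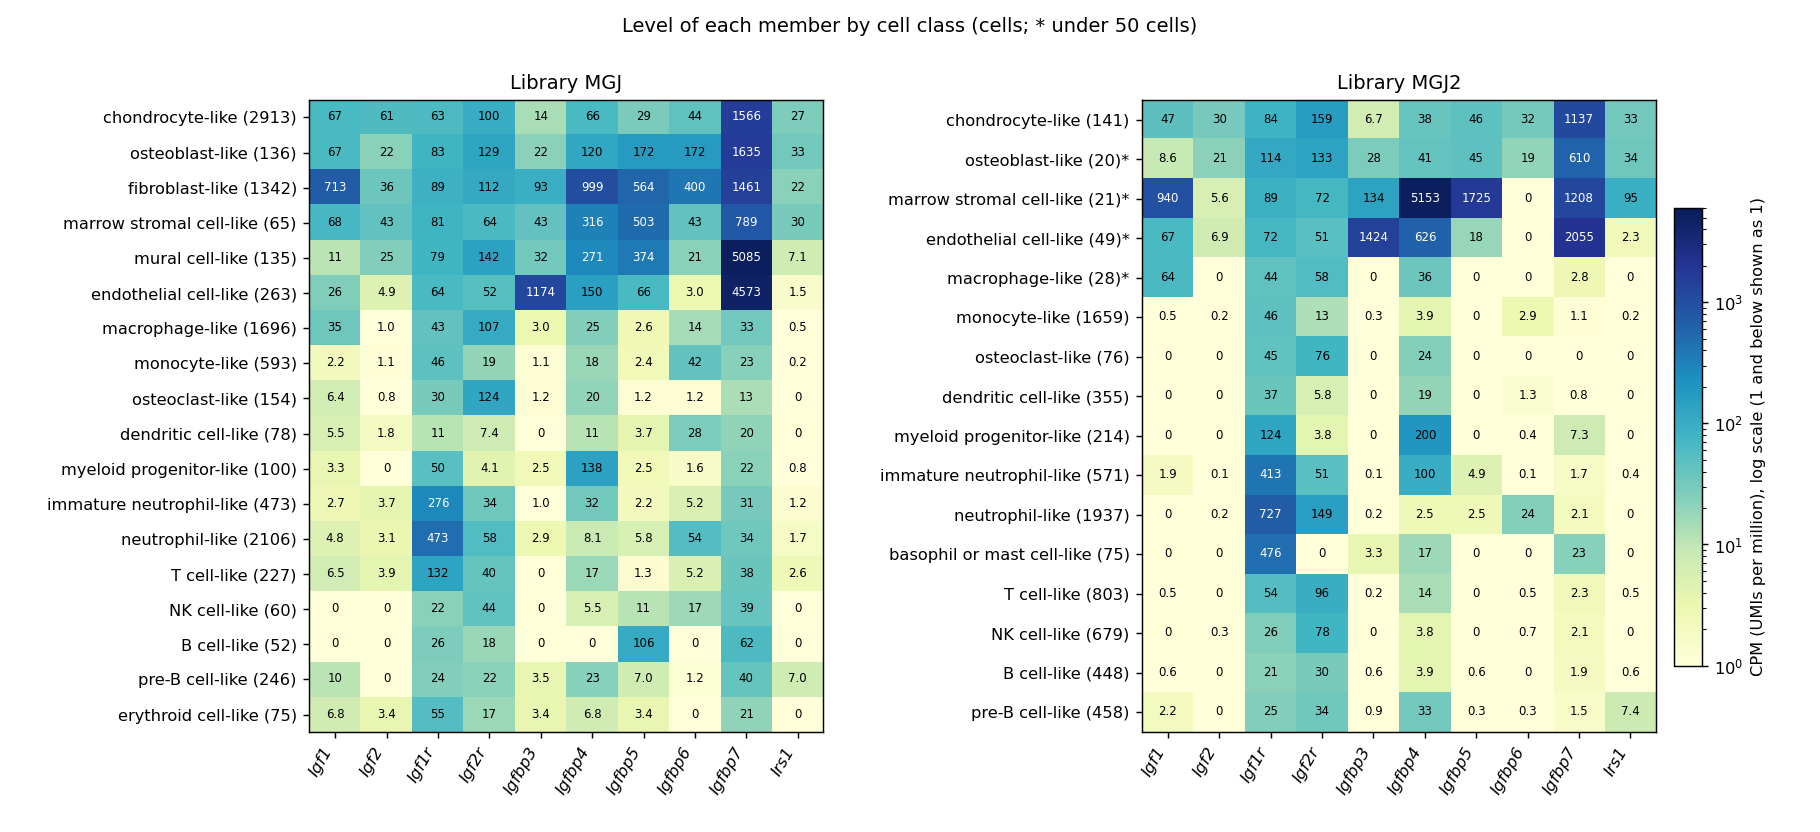
Level of the 10 genes (columns) in each named cell class of at least 20 cells (rows, cell numbers in brackets) in MGJ (left) and MGJ2 (right), in CPM on a log colour scale. Igf1, Igfbp4, Igfbp5 and Igfbp6 peak in fibroblast-like cells of MGJ (713, 999, 564 and 400.5 CPM), Igfbp3 in endothelial-like cells of both libraries (1174 and 1424) and Igf1r in neutrophil-like cells of both (473 and 727).

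In MGJ the ligands were highest in different classes, but chondrocyte-like cells held both, Igf1 at 66.9 and Igf2 at 60.8 CPM. Igf1 (ENSMUSG00000020053; GRCm38, chromosome 10, 87858265 to 87937042, plus strand) was highest in fibroblast-like cells of MGJ, at 713 CPM (interval 702 to 724). Marrow stromal-like, osteoblast-like and chondrocyte-like cells followed at 68.2, 67.0 and 66.9 CPM, and these 3 classes did not differ beyond their intervals. The 65 marrow stromal-like cells of MGJ had a median of 1222 UMIs and showed 4 of the 6 markers of the class above other cells, whereas the 21 of MGJ2 showed 6 of 6, so the levels of this class in MGJ rest on a less certain name. Fibroblast-like cells were 10.4-fold (6.43 to 18.3) above the next class. Macrophages are a known source of IGF1 in healing tissue, and the macrophage-like level in MGJ was 35.0 CPM (32.1 to 38.2). Within them it was 49.2 (44.7 to 54.0) in the 891 cells led by Pf4 and Arg1 and 14.7 (11.8 to 18.1) in the 805 cells led by C1qb and Mmp19. Neutrophil-like cells, taken as the class that should lack stromal transcripts, held 4.83 Igf1 CPM in MGJ and none in MGJ2.

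In MGJ2, Igf1 stood at 46.9 CPM (40.6 to 53.9) in chondrocyte-like cells, 21.6-fold (10.3 to 54.5) above the next class of at least 50 cells. That class was pre-B cell-like, with 7 Igf1 UMIs. Of the smaller classes, the 49 endothelial-like cells had 67.0 CPM (44.9 to 96.3) and the 28 macrophage-like cells 63.6 (40.3 to 95.5). Both intervals overlapped that of chondrocyte-like cells. The 10 fibroblast-like cells held 76 Igf1 UMIs among 193234 UMIs, and 5 of the 10 had an Igf1 UMI. This was a higher level than that of chondrocyte-like cells, with 197 among 4200670. The 20 osteoblast-like cells of that library were lower, at 8.57 CPM (2.33 to 21.9), and its 21 marrow stromal-like cells were higher. The latter reached 940.5 CPM (804 to 1093), a value that rests on 169 UMIs. Of the 12 classes of at least 50 cells in MGJ2, 6 had no Igf1 UMI.

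Igf2 (ENSMUSG00000048583; chromosome 7, 142650766 to 142666816, minus strand), a fetal growth factor expressed from the paternal allele, peaked in chondrocyte-like cells. Their levels were 60.8 CPM (58.8 to 62.7) in MGJ and 30 (25.0 to 35.7) in MGJ2, where no class of at least 20 cells was higher. The MGJ2 level rested on 20 of 141 cells with an Igf2 UMI, and 10 of these held 89.7% of its 126 UMIs. In MGJ the lead was clear over the level of the fibroblast-like class (36.4, interval 34.0 to 39.0). It was not clear over the 65 marrow stromal-like cells (42.7, interval 20.5 to 78.4). The MGJ fibroblast-like sub-clusters led by Tnmd and by Ptx3 had 72.1 CPM (64.5 to 80.4) and 75.0 (65.7 to 85.3), above the chondrocyte-like class. The other fibroblast-like sub-clusters of MGJ had 9.25 to 22.85. Immune classes of at least 50 cells lay between 0 and 3.88 CPM in MGJ and between 0 and 0.35 in MGJ2. Igf2 had 4803 UMIs in MGJ and 148 in MGJ2, the lowest total of the 10 genes in MGJ2. All 10 passed the minimum of 20 UMIs in each library.

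The receptors had other distributions. Igf1r (ENSMUSG00000005533; chromosome 7, 67952827 to 68233668, plus strand) was highest in neutrophil-like cells, at 473 CPM (455 to 492) in MGJ and 727 (703 to 750.3) in MGJ2. Immature neutrophil-like cells had 276 and 413 CPM, and the unnamed cluster led by Ccl3 and Ccl4 in MGJ had 392 (374 to 410.5). Chondrocyte-like cells had 62.6 (60.7 to 64.6) in MGJ, where the other stromal and vascular classes had 64.1 to 88.5, and 83.6 (75.0 to 92.8) in MGJ2. By maturation, Igf1r in MGJ2 was 124 CPM in myeloid progenitor-like cells, 278 in immature neutrophil-like cells led by Fcnb and Camp, 651 in those led by Ltf and Ngp, and 671 and 754 in the neutrophil-like clusters led by Retnlg and Acod1. The same clusters of MGJ read 50.2, 189.7, 362, 422 and 561 CPM, the last on 110 UMIs in 122 cells. Most neutrophil-like cells of MGJ, 1640 of 2106, lay in another cluster, led by Cstdc4 and Stfa2l1, with 486 CPM (464 to 509). The 75 basophil or mast cell-like cells of MGJ2 also stood high, at 476 CPM (400.5 to 560.5).

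Igf2r (ENSMUSG00000023830; chromosome 17, 12682406 to 12769664, minus strand), the clearance receptor, was spread widely. In MGJ its levels in mural-, osteoblast-, osteoclast-, fibroblast- and macrophage-like cells ran from 142 down to 107 CPM, and no neighbour in that order differed from the next beyond its interval. Chondrocyte-like cells had 100.5 (98.0 to 103). In MGJ2 chondrocyte-like cells had 159 (147 to 171) and neutrophil-like cells 149 (138 to 159), which did not differ beyond their intervals. Myeloid progenitor-like cells were lowest among classes with any UMI, at 4.12 CPM in MGJ and 3.83 in MGJ2.

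Of the binding proteins, Igfbp3 and Igfbp7 were highest in the cells of blood vessels. Igfbp3 (ENSMUSG00000020427; chromosome 11, 7206086 to 7213923, minus strand), whose protein carries most IGF in blood, stood at 1174 CPM (1134 to 1216) in endothelial-like cells of MGJ, 12.7-fold (12 to 13.4) above fibroblast-like cells. In MGJ2 the 49 endothelial-like cells had 1424 CPM (1314 to 1541). Igfbp3 was uneven among endothelial-like cells: 123 of 263 in MGJ and 22 of 49 in MGJ2 had a UMI, and the 10 highest cells held 43.1% and 96.3% of its UMIs there. Chondrocyte-like cells had 13.8 and 6.67 CPM.

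Igfbp7 (ENSMUSG00000036256; chromosome 5, 77349240 to 77408041, minus strand), a vessel wall and matrix protein with weak affinity for IGFs, was highest in mural-like cells of MGJ at 5085 CPM (4954 to 5219) and in endothelial-like cells at 4573 (4492 to 4655). Osteoblast-, chondrocyte- and fibroblast-like cells followed at 1635, 1566 and 1461. In MGJ2, 49 endothelial-like cells had 2055 CPM and chondrocyte-like cells 1137 (1105 to 1170). Immune classes of MGJ had 13.3 to 61.6 CPM and those of MGJ2 0 to 23.4. Free RNA was not tested as a source of these low values.

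Igfbp4 (ENSMUSG00000017493; chromosome 11, 99041244 to 99054392, plus strand), the substrate of PAPP-A and an inhibitor of IGF action, was highest in fibroblast-like cells of MGJ at 999 CPM (986 to 1012). Marrow stromal-like (316) and mural-like cells (271) came next and did not differ beyond their intervals. The 21 marrow stromal-like cells of MGJ2 reached 5153 CPM (4826 to 5496) and its 49 endothelial-like cells 626 (554 to 706). Myeloid progenitor-like cells were also high for blood cells, at 138 (118 to 161) in MGJ and 200.1 (188 to 213) in MGJ2. In both libraries the level was lower in later stages. In MGJ2 it was 146 CPM in immature neutrophil-like cells led by Fcnb, 18.5 in those led by Ltf and 2.54 in neutrophil-like cells. The values in MGJ were 52.4, 12.3 and 8.12.

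Igfbp5 (ENSMUSG00000026185; chromosome 1, 72857932 to 72874884, minus strand), a matrix-bound binding protein of bone, had 564 CPM (554 to 574) in fibroblast-like and 503 (417 to 603) in marrow stromal-like cells of MGJ, which did not differ beyond their intervals. Mural-like cells had 374 (339 to 412) and chondrocyte-like cells 28.5 (27.2 to 29.9). The marrow stromal-like cells of MGJ2 had 1725 CPM (1538 to 1928). Chondrocyte-like cells of MGJ2 had 45.9, but 13 of 141 cells carried all 193 UMIs and 10 of them 98.4%.

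Igfbp6 (ENSMUSG00000023046; chromosome 15, 102144362 to 102149511, plus strand), which prefers IGF2, was highest in fibroblast-like cells of MGJ, at 400.5 CPM (392 to 409), 2.33-fold (2.09 to 2.61) above osteoblast-like cells. Neutrophil-like cells were above chondrocyte-like cells in MGJ, with 54.1 (48.0 to 60.8) against 43.5 (41.9 to 45.2). In MGJ2 they had 24.0 (19.9 to 28.6) against 31.9 (26.7 to 37.8). Among neutrophil-like cells of MGJ2 it was 35.5 CPM in the cluster led by Acod1 and 0.602 in the cluster led by Retnlg. In MGJ these clusters had 148 (99.1 to 213, on 29 UMIs in 122 cells) and 19.7. The 1640 neutrophil-like cells of MGJ led by Cstdc4 had 60.9 (53.2 to 69.4), and the unnamed cluster led by Ccl3 had 75.8.

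Irs1 (ENSMUSG00000055980; chromosome 1, 82233101 to 82291416, minus strand), the adapter below IGF1R and the insulin receptor, was found mainly in skeletal and fibroblast-like cells. In MGJ osteoblast-like, marrow stromal-like and chondrocyte-like cells had 32.7, 29.9 and 26.7 CPM, with no difference beyond their intervals. Fibroblast-like cells of MGJ had 22.1 (20.3 to 24.2). Their sub-clusters led by Col8a1 and by Tnmd had 29.3 and 30.2, and the others 11.5 to 19.3. In MGJ2 the 21 marrow stromal-like cells had 94.6 CPM (55.1 to 151), osteoblast-like cells 34.3, chondrocyte-like cells 32.9 (27.6 to 38.8) and pre-B cell-like cells 7.43 (4.76 to 11.1). No immune class of MGJ was above 6.98. Igf1, Igf2, Igf2r, Igfbp7 and Irs1 overlap annotated genes on the opposite strand (Igf1os, Igf2os, Airn, Polr2b and Gm34648, and Gm9747), and the use of strand in counting was not given in the sources used here.

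Summed over cells, the molecules of most genes lay mainly in 1 or 2 classes. In MGJ, fibroblast-like cells made up 17.4% of all UMIs and held 76.1% of Igf1, 78.9% of Igfbp4, 81.2% of Igfbp5 and 68.5% of Igfbp6 UMIs. Chondrocyte-like cells made up 46.9% of all UMIs and held 78.0% (76.8 to 79.2) of Igf2, 71.6% of Irs1, 61.9% of Igfbp7 and 50.3% of Igf2r UMIs. Endothelial-like cells, with 2.03% of all UMIs, held 49.7% (48.5 to 51.0) of Igfbp3. In MGJ2, where chondrocyte-like cells made up 7.23% of all UMIs, they held 85.1% (78.4 to 90.4) of Igf2, 67.1% of Igfbp7 and 65.1% of Irs1 UMIs. Neutrophil-like and immature neutrophil-like cells together held most Igf1r UMIs there, 38.6% and 33.2%. The Igfbp4 UMIs of MGJ2 were divided among myeloid progenitor-like (28.0%), marrow stromal-like (24.8%) and immature neutrophil-like cells (20.7%).

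**Figure D2:**
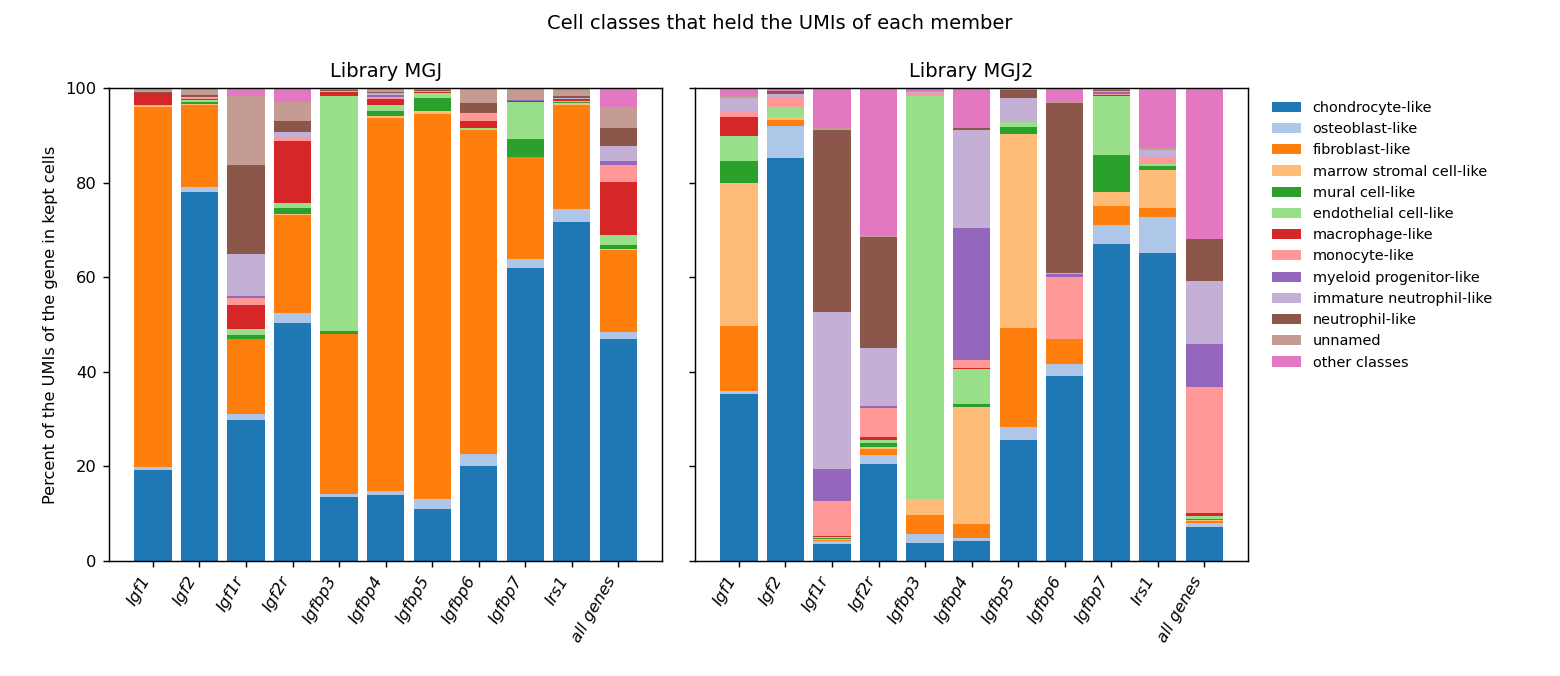
Percent of the UMIs of each gene in kept cells (y axis) that lay in each cell class (colours) in MGJ (left) and MGJ2 (right), with the share of all UMIs in the last bar. Fibroblast-like cells make up most of the Igf1 bar of MGJ (76.1%), endothelial-like cells most of the Igfbp3 bar of MGJ2 (85.2%) and chondrocyte-like cells most of the Igf2 bar of both (78.0% and 85.1%).

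In fibroblast-like cells of MGJ, 5 of the 10 genes were at least 2-fold above all other cells (Igf1 and Igfbp3 to Igfbp6), where 13.8% of all genes were, and 0 were as far below, where 20.2% were. In endothelial-like cells of MGJ, Igfbp3 and Igfbp7 were higher (20.9% of all genes) and Igf1, Igf2, Igfbp6 and Irs1 lower (26.2%). In neutrophil-like cells of MGJ, Igf1r alone was higher (8.81%), and Igf1, Igf2, Igfbp3, Igfbp4, Igfbp5, Igfbp7 and Irs1 were lower (70.4%). The same 7 were lower in neutrophil-like cells of MGJ2 (69.3%), where Igf1r, Igf2r and Igfbp6 were higher (9.03%). In MGJ the other cells of this comparison included the unnamed cluster that scored highest for the neutrophil list.

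The share of cells with a transcript was compared at equal depth, after each cell had been thinned at random to 2000 UMIs and shallower cells left out. This left out 36 of 1342 fibroblast-like, 53 of 2913 chondrocyte-like, 55 of 263 endothelial-like and 997 of 2106 neutrophil-like cells of MGJ, whose median depths were 16290, 20978, 6123 and 2070 UMIs. Igf1 was then seen in 53.6% (50.9 to 56.3) of fibroblast-like cells of MGJ, 7.87% (6.91 to 8.91) of chondrocyte-like cells and 0.992% (0.496 to 1.77) of neutrophil-like cells. Without thinning the shares were 73.7%, 27.7% and 1.19%. Igf2 was seen in 8.88% of chondrocyte-like cells (27.8% unthinned) and 0.541% of neutrophil-like cells (0.712% unthinned). Igfbp7 was seen in 83.0% (81.6 to 84.4) of chondrocyte-like cells (96.7% unthinned) and 5.14% (3.92 to 6.61) of neutrophil-like cells (7.36% unthinned).

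Igf1r, by contrast, was seen in 46.0% (43.0 to 49.0) of neutrophil-like cells of MGJ and 11.3% (10.2 to 12.5) of chondrocyte-like cells, and in 57.5% (54.8 to 60.1) against 18.2% (12.2 to 25.7) in MGJ2. Unthinned, the share of chondrocyte-like cells was 62.5% in MGJ and 79.4% in MGJ2, and that of neutrophil-like cells 48.5% and 59.9%. T cell-like cells had 16.1% and 6.20% at equal depth (20.7% and 10.8% unthinned). Igfbp3 in endothelial-like cells was seen in 37.0% (30.4 to 44.0) in MGJ and 41.2% (24.6 to 59.3) in MGJ2, against 0.541% and 0.0740% of neutrophil-like cells. The unthinned shares were 46.8% and 44.9%, and 0.522% and 0.0516%. In MGJ2, 4 of 141 chondrocyte-like and 585 of 1937 neutrophil-like cells were left out, with median depths of 29235 and 2339 UMIs.

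Chondrocyte-like cells were then set against all other cells of their library, calling a gene at a difference of at least 2-fold. In MGJ, 2 of the 10 genes were higher, Igf2 by 4.03-fold (3.76 to 4.32) and Irs1 by 2.85-fold (2.60 to 3.13), where 15.9% of all 16495 genes were. The other side held 6 of the 10, at ratios of 0.141 for Igfbp5, 0.177 for Igfbp3, 0.185 for Igfbp4, 0.270 for Igf1, 0.285 for Igfbp6 and 0.483 for Igf1r, where 26.6% of all genes were lower. The median log2 ratio was -1.27 over the 10 genes and -0.03 over all genes. Igf1r passed 2-fold in 9 of 15 and Irs1 in 11 of 16 alternative settings, and Igf2r (1.15) and Igfbp7 (1.84) were not called.

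In MGJ2, 7 of the 10 were higher, where 22.2% of all 14715 genes were, and 1 lower, where 33% were. Igf2 was 73.5-fold (46.5 to 121) higher, Igfbp7 26.2-fold (24.9 to 27.5), Irs1 23.9-fold (17.9 to 32.2), Igfbp6 8.23-fold, Igf1 7.0-fold, Igfbp5 4.41-fold and Igf2r 3.33-fold. Igf1r was lower at a ratio of 0.484 (0.434 to 0.538). The ratio of Igfbp5 turned to 0.653 when doublet calls were kept, to 0.644 at a finer clustering and to 0.820 without a sub-cluster led by Rtl3 that is described below. The median log2 ratio was 1.57 over the 10 genes and -0.09 over all genes. The other cells differed between the libraries, with 1342 fibroblast-like cells among them in MGJ and 10 in MGJ2.

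Against other stromal and vascular cells alone, a comparison added after these values were seen, fewer genes were higher. In MGJ none of the 10 was higher (11.1% of 15635 genes) and 5 were lower (23.8% of genes), Igf1 (0.117), Igfbp3 (0.0747), Igfbp4 (0.0796), Igfbp5 (0.0590) and Igfbp6 (0.132). In MGJ2 Igf2 was higher at 2.58-fold (1.53 to 4.65), where 8.17% of 10754 genes were, and Igf1 (0.212), Igfbp3 (0.0134), Igfbp4 (0.0389) and Igfbp5 (0.125) were lower, where 24.8% were. The directions of Igf1 and Igfbp5 in MGJ2 were thus opposite to those against all other cells, as was that of Igfbp7 (0.703), which was not called here. Irs1, higher in both libraries against all other cells, was not called here either (1.31 in MGJ and 1.13 in MGJ2). The median log2 ratio of the 10 genes was -1.53 in MGJ and -0.39 in MGJ2, and that of all genes -0.09 and -0.25.

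**Figure D3:**
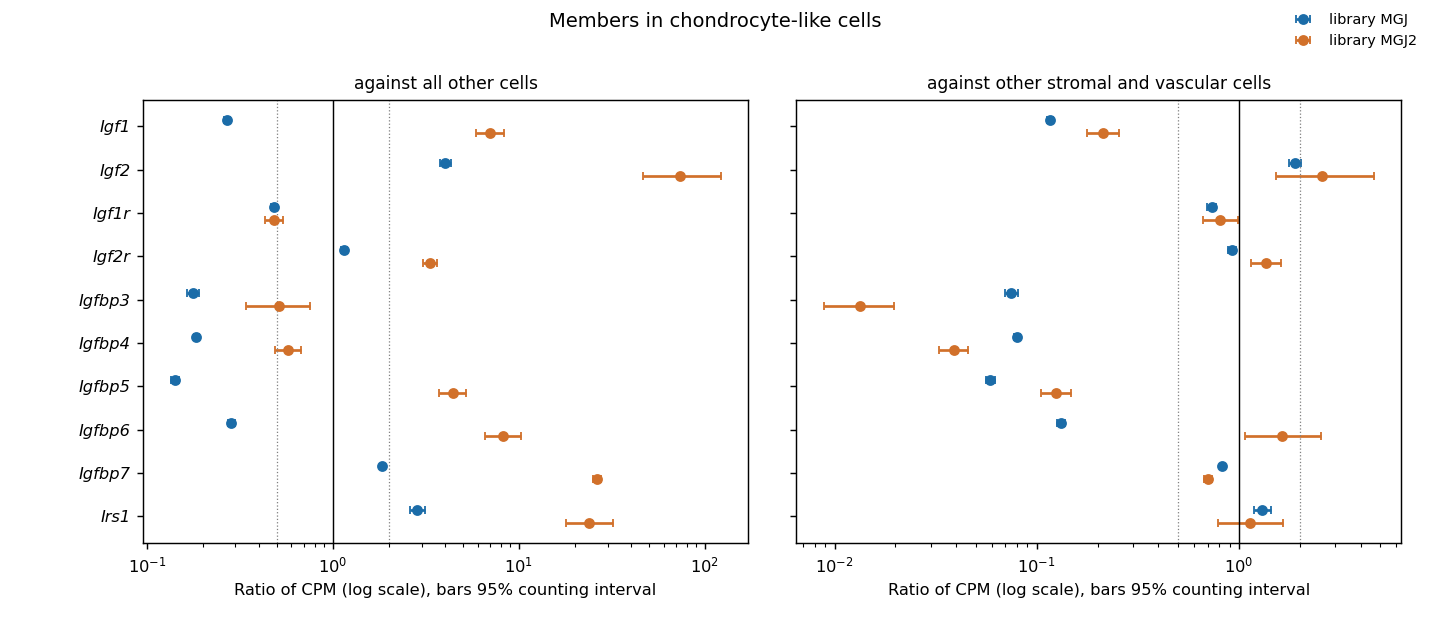
Ratio of CPM in chondrocyte-like cells to all other cells (left) and to other stromal and vascular cells (right), on a log axis, for each gene in MGJ (blue) and MGJ2 (orange). Bars are 95% counting intervals, the solid line marks equality and the dotted lines 2-fold. Igf1, at 0.270 in MGJ and 7.0 in MGJ2 on the left, lies below equality in both on the right, at 0.117 and 0.212.

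Hypertrophic chondrocytes (HTCs), the enlarged cells that precede ossification, are marked by Col10a1. Hypertrophic-like cells were a chondrocyte-like sub-cluster picked by a marker list that holds Col10a1, so their high Col10a1 follows from the choice. The 663 hypertrophic-like cells of MGJ had 23553 Col10a1 CPM against 1444 in the other 2250 chondrocyte-like cells, and the 81 of MGJ2 had 32175 against 3891 in the other 60. Set against these other chondrocyte-like cells, no IGF gene was 2-fold higher in either library, where 7.63% of 14449 genes were in MGJ and 7.93% of 9392 genes in MGJ2. In MGJ 5 were lower, where 11.5% of all genes were, and in MGJ2 6 were, where 8.76% were.

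Igf2, Igfbp3, Igfbp4 and Igfbp7 were lower in both libraries. Igf2 stood at 22.8 against 71.9 CPM in MGJ (ratio 0.317, interval 0.281 to 0.355) and at 3.27 against 67.3 in MGJ2 (0.0486, interval 0.0205 to 0.0989). Igfbp7 stood at 713 against 1816 (0.393, interval 0.384 to 0.401) and at 700.5 against 1746 (0.401, interval 0.378 to 0.426). The hypertrophic-like level of Igf2 in MGJ2 rested on 8 UMIs, whereas that of Igfbp7 rested on 1714.

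Igfbp4 was 22.0 against 78.6 CPM in MGJ (0.281) and 15.1 against 70.7 in MGJ2 (0.214). In MGJ the Rtl3 sub-cluster held 1860 of the 4056 Igfbp4 UMIs of chondrocyte-like cells. The MGJ call for Igfbp4 held in 15 of 16 alternative settings, and the ratio was 0.536 with cells named 1 by 1. Igfbp3 was 5.37 against 16.3 in MGJ (0.330, interval 0.256 to 0.418), and in MGJ2 rested on 3 hypertrophic-like UMIs (0.0860, interval 0.0166 to 0.282). For Igf2 and Igfbp3 the direction and the call held in every alternative setting that gave a value, 16 for Igf2 in each library and 16 and 15 for Igfbp3.

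Igf1 was called in MGJ, at 22.5 against 79.9 CPM (0.281, interval 0.250 to 0.316), and not in MGJ2, at 36.0 against 62.2 (0.579, interval 0.432 to 0.773). The call in MGJ rested on the Rtl3 sub-cluster, which held 2239 of the 3811 Igf1 UMIs of the other chondrocyte-like cells. Without it the ratio was 0.553. Igfbp5 (0.117) and Irs1 (0.199) were called in MGJ2 and not in MGJ (0.682 and 0.582). The MGJ2 ratio of Igfbp5 went to 5.35 with doublet calls kept, 4.53 at a finer clustering, 12.7 with cells named 1 by 1 and 5.25 without the Rtl3 sub-cluster, and that of Irs1 to 0.507 without this sub-cluster. Igf1r, the receptor for both ligands, was not called, with 64.3 against 62.2 CPM in MGJ (1.03, interval 0.958 to 1.12) and 95.2 against 67.3 in MGJ2 (1.42, interval 1.13 to 1.78). Igf2r (0.780 and 0.888) and Igfbp6 (0.816 and 0.696) were not called. The median log2 ratio of the 10 genes was -0.66 in MGJ and -1.21 in MGJ2, against -0.02 and -0.01 over all genes. Hypertrophic-like cells also held less of the fibroblast marker list than the other chondrocyte-like cells, 4154 against 5908 CPM in MGJ and 3774 against 5101 in MGJ2, and less of the neutrophil list, 353 against 1878 and 163 against 2729. The part of fibroblast RNA in these ratios was not tested. Without the sub-clusters that carried neutrophil markers, each of the counts above was the same.

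**Figure D4:**
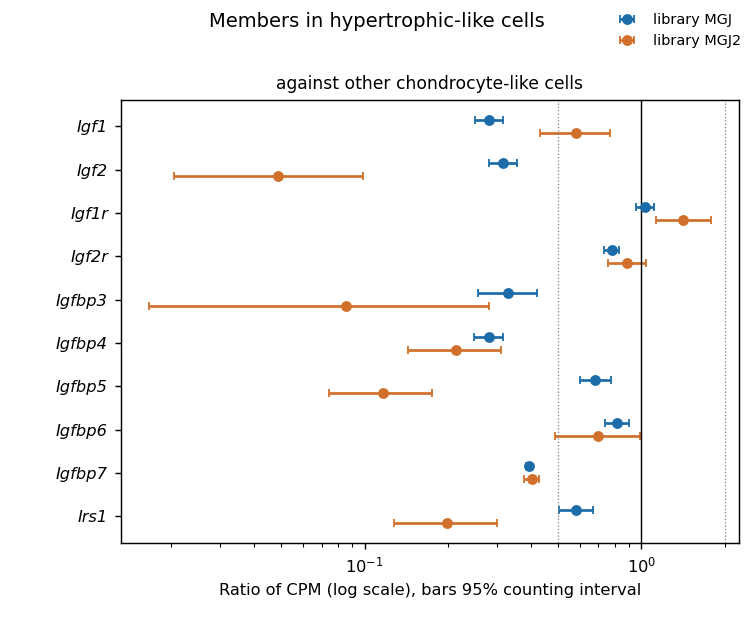
Ratio of CPM in hypertrophic-like to other chondrocyte-like cells, on a log axis, for each gene in MGJ (blue) and MGJ2 (orange), with 95% counting intervals. The solid line marks equality and the dotted lines 2-fold. Igf2, Igfbp3, Igfbp4 and Igfbp7 lie left of the lower dotted line in both libraries, and Igf1r at or right of equality (1.03 and 1.42).

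The IGF genes also varied among chondrocyte-like cells of MGJ. A sub-cluster of 503 cells led by Rtl3, H19 and Peg3 had 249 Igf1 CPM (239 to 259) and 2239 of the 4125 Igf1 UMIs of the class. The main sub-cluster, 1203 cells led by Ucma and Epyc, had 31.7 (29.7 to 33.9). The Rtl3 sub-cluster was also above the Ucma sub-cluster in Igfbp4 (207 against 40.5), Igfbp5 (83.0 against 11.3) and Irs1 (57.7 against 22.2), but not in Igf2 (76.6 against 73.8, intervals 71.0 to 82.5 and 70.6 to 77.1). It carried 9630 CPM of the fibroblast marker list against 4994, and 67780 of the chondrocyte list against 98490. The part of fibroblast RNA in its levels was not tested. In MGJ2 the contrast differed by gene. The 32 Rtl3 cells had 81.0 Igf1 CPM (62.5 to 103) and the 20 Ucma cells 55.0 (38.5 to 76.2), with overlapping intervals. Igfbp5 was 204.5 against 0 and Irs1 106 (84.6 to 131) against 30.6 (18.7 to 47.2).

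Igf2 was highest in the 48 cells led by Mmp13 and Has2, at 132 CPM (108 to 159), and lowest in the sub-clusters led by Nrn1 and Chrdl2 (20.8) and by Col10a1 (22.8). Cycling cells, led by Ube2c and Cdk1, had 77.1 (67.6 to 87.5), not apart from the Ucma and Rtl3 sub-clusters beyond the intervals. Igfbp6 stood out in the 152 Nrn1 cells, at 183 CPM (167 to 200), where the other chondrocyte-like sub-clusters had 9.49 to 63.0. Low Igfbp3 was shared by the Nrn1 (3.79, interval 1.82 to 6.97), Col10a1 (5.37, interval 4.22 to 6.73) and cycling cells (7.45, interval 4.72 to 11.2). The other sub-clusters had 12.9 to 67.6. Igf1r ran only from 53.6 to 103 across the 7 sub-clusters, and in the one with neutrophil markers it was 89.2 (81.1 to 97.9).

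Fibroblast-like cells of MGJ fell into 5 sub-clusters with different binding proteins. Igf1 was highest in the 329 cells led by the tendon genes Tnmd and Thbs4 (1397 CPM, interval 1362 to 1432) and the 197 cells led by Ptx3, Cxcl14 and Cxcl12 (1348, interval 1308 to 1390), which did not differ beyond their intervals. It was 158 (147 to 170) in the 258 cells led by Tagln and Cxcl5. Igfbp4 peaked in the Ptx3 cells at 2903 (2844 to 2964), against 508 to 1106 in the other 4 sub-clusters. Igfbp5 peaked in the Tnmd cells at 1059 (1029 to 1090) and was 12.9 (9.91 to 16.4) in the Tagln cells. Igfbp6 was also highest in the Tnmd cells, at 649 (625 to 673), and lowest in the Tagln cells, at 141 (131 to 152). Igfbp3 was highest in the Ptx3 cells (149, interval 136 to 164), and Igf2r varied least, from 93.7 to 123.

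Single cells differed further. The highest fibroblast-like cell had 30070 Igfbp5 CPM while the median cell had none, and 619 of 1342 cells (46.1%) had a UMI. For Igf1 the median fibroblast-like cell had 398 and the highest 8252 CPM.

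**Figure D5:**
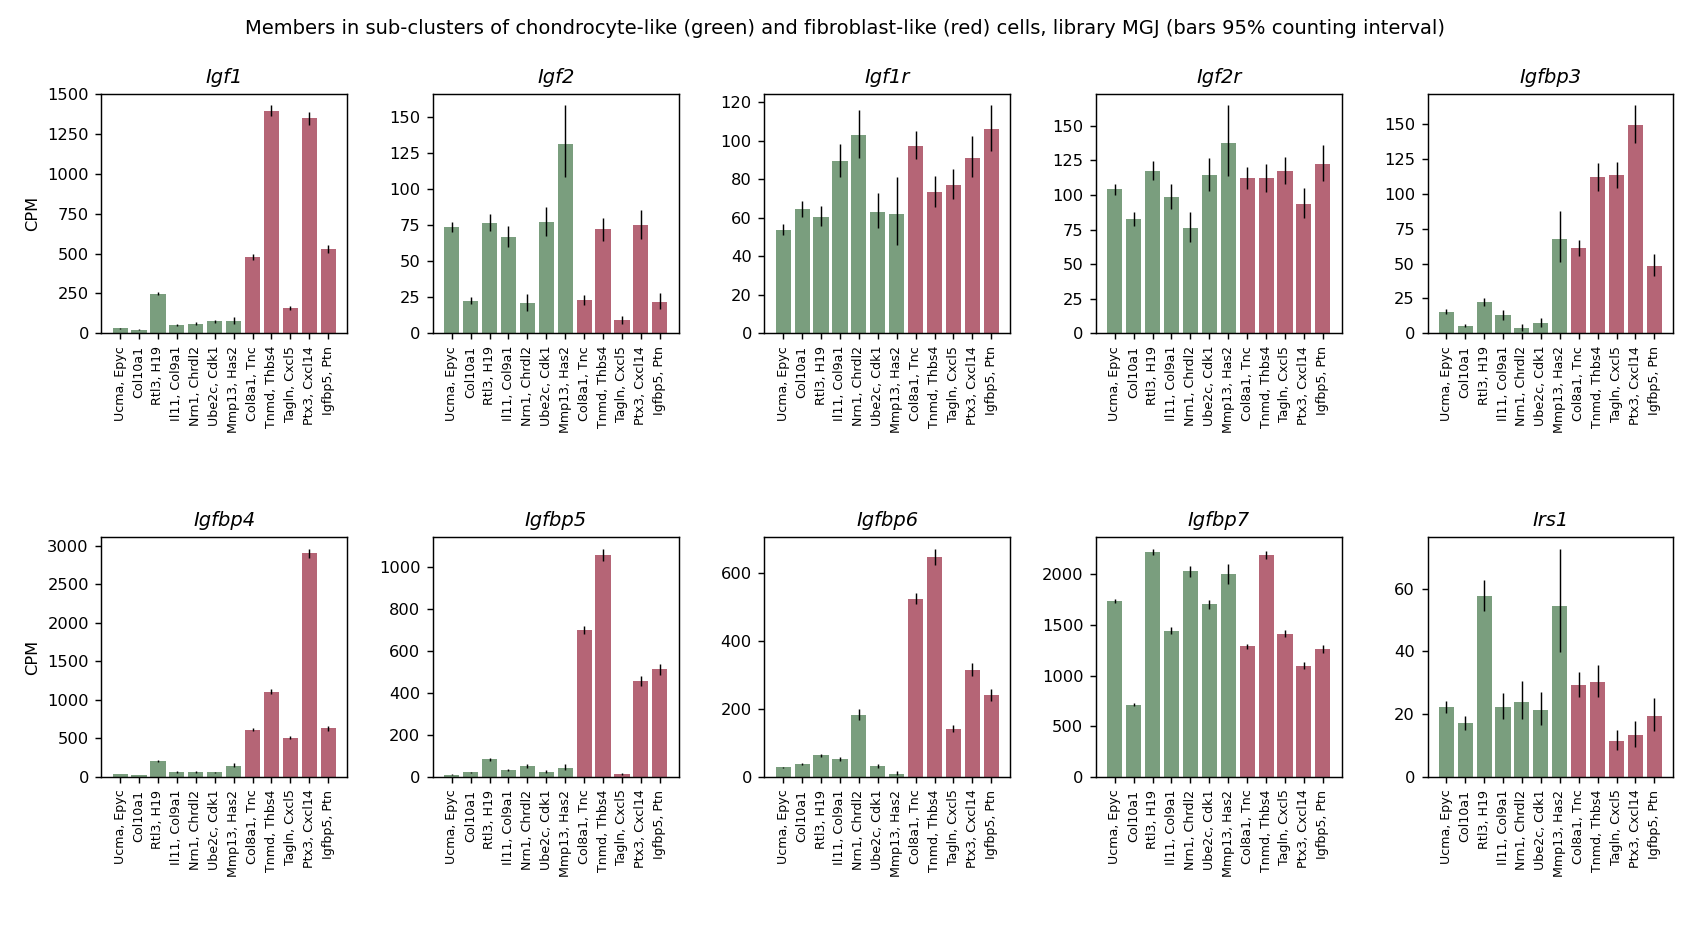
Level of each gene (y axis, CPM, linear from 0) in 7 sub-clusters of chondrocyte-like cells (green) and 5 of fibroblast-like cells (red) of MGJ, named by leading genes, with 95% counting intervals. Igfbp4 peaks in the Ptx3 sub-cluster (2903), Igfbp5 and Igfbp6 in the Tnmd sub-cluster (1059 and 649), and Igfbp7 has its lowest bar in the Col10a1 sub-cluster (713).

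Of 27 further genes of the pathway, 26 in MGJ and 23 in MGJ2 had at least 20 UMIs. In chondrocyte-like cells against all other cells, 9 were 2-fold higher and 4 lower in MGJ, where 15.9% and 26.6% of all genes were. In MGJ2 13 were higher and 2 lower, against 22.2% and 33% of all genes. The other cells of MGJ2 were mostly blood and marrow cells. The median log2 ratio of the further genes was -0.05 in MGJ and 1.04 in MGJ2. Against other stromal and vascular cells alone it was -0.28 and 0.29, where all genes had -0.09 and -0.25. The ratios of single further genes below are all against all other cells. Several of the higher genes act on receptors or proteases of the pathway. Grb14, an adapter that blocks insulin receptor signalling, had 110.3 against 7.35 CPM in MGJ (15-fold, 13.7 to 16.5) and 96.4 against 0.872 in MGJ2 (111-fold, 81.6 to 153). Grb10, a related adapter, had 185 against 47.7 (3.88-fold) and 218 against 4.10 (53.1-fold). Stc2, an inhibitor of PAPP-A, had 22.9 against 0.944 (24.3-fold) and 43.1 against 0.297 (145-fold), and chondrocyte-like cells were its highest class in both libraries.

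The growth hormone receptor gene Ghr (2.10-fold and 24.7-fold), its feedback inhibitor Socs2 (2.85-fold and 11.9-fold), the FOXO factor Foxo1 (4.53-fold and 2.65-fold) and the noncoding RNA H19 (4.54-fold and 94.4-fold) were also higher in both libraries. Stat5b, which passes on the growth hormone signal (0.445 and 0.244), and Stc1 were lower in both. Stc1 had a ratio of 0.0643 in MGJ, and none of its 118 UMIs in MGJ2 lay in chondrocyte-like cells. Stc1 was highest in endothelial-like cells, at 165 and 257 CPM. Pappa, the gene of PAPP-A, was highest in fibroblast-like cells of MGJ (60.7 CPM) and in the 21 marrow stromal-like cells of MGJ2 (451). In the same cells of MGJ, Pappa2, a related protease gene, had 4.67 and Igfbp2 2.93. Insr, the insulin receptor gene, was highest in endothelial-like cells of both libraries (59.6 and 74.0), and Irs2 in B cell-like cells (123 and 285).

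In hypertrophic-like cells, set against the other chondrocyte-like cells, 1 further gene was 2-fold higher and 5 lower of 25 tested in MGJ. There 7.63% and 11.5% of all genes were. In MGJ2 5 were higher and 1 lower of 21, against 7.93% and 8.76% of all genes. Ghr was higher in both, at 57.0 against 24.5 CPM (2.32-fold, 2.12 to 2.54) and 55.2 against 23.9 (2.30-fold, 1.62 to 3.34). Socs2 was 1.97-fold and 2.48-fold, Irs2 1.74-fold and 2.60-fold and Pik3r1, the regulatory subunit of PI3K, 1.90-fold and 3.30-fold, so these passed 2-fold in MGJ2. H19 was lower in both, at 66.8 against 445 (0.15, interval 0.141 to 0.16) and 55.6 against 375 (0.148, interval 0.122 to 0.178). H19 lies 72.6 kb from Igf2 on chromosome 7, and both are imprinted. Pappa was lower in MGJ (0.356) and not in MGJ2 (0.922). The median log2 ratio of the further genes in hypertrophic-like cells was 0.06 in MGJ and 0.15 in MGJ2, against -0.02 and -0.01 over all genes.

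The profile of each gene over 30 pairs of library and class was compared with those of 12783 genes, on log2(CPM + 10) centred in each library, as a description of points that share libraries and depths. The most similar were Svep1 (Pearson r = 0.94) for Igf1, Shox2 (0.97) for Igf2, Slc2a3 (0.89) for Igf1r, Timp2 (0.85) for Igf2r, Ephb4 (0.98) for Igfbp3, Wls (0.85) for Igfbp4, Cdc42ep5 (0.97) for Igfbp5, Ltbp2 (0.85) for Igfbp6, Fermt2 (0.98) for Igfbp7 and Gm15867 (0.96) for Irs1. After these came Bnc2 and Flnc for Igf1, Snhg18 and Hoxc10 for Igf2, Ppp1r3d and Syne1 for Igf1r, Rhob and Sec14l1 for Igf2r, and Cdh13 and Ptprg for Igfbp3. For the remaining genes they were Cntln and Bace1 (Igfbp4), Kirrel and Tnc (Igfbp5), Cped1 and Pdgfra (Igfbp6, Pdgfra being a fibroblast marker used for naming), Sgce and Nckap1 (Igfbp7) and Fxyd6 and Colec12 (Irs1). Within the system, Igf2 and Irs1 were most alike (r = 0.90). H19 gave r = 0.95 with Igf2, 0.94 with Irs1, which lies on another chromosome, and 0.80 with both Igf1 and Igfbp7.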

How the data were processed

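Per the labels and the file headers, the authors deposited 1 filtered matrix of raw UMI counts per library, made with Cell Ranger 4.0.0 from 10x Chromium 3′ (V3) libraries on GRCm38, with no normalization. Barcodes with under 200 genes or over 20% mitochondrial UMIs were dropped, then doublets called by Scrublet in scanpy 1.11.5 (random seed 1; seed 0 called 0 in MGJ). Counts scaled to 10000 per cell were log-transformed. Leiden clusters (leidenalg 0.10.2, igraph 0.11.9; 2000 variable genes without the 37 pathway genes, 30 components, 15 neighbours, resolution 1) were named from 26 marker lists. Chondrocyte- and stromal-like clusters were divided at resolution 0.5. Naming thresholds, the joining of tendon- with fibroblast-like cells and the stromal division were set after leading genes had been seen. Levels were summed counts per 1000000, with exact Poisson intervals. Ratios had exact conditional binomial and shares Clopper-Pearson intervals. No test was run, as the labels give neither library a group. A gene was called at 2-fold with at least 20 UMIs. Ratio scripts were tested on simulated data. Python 3.11.15, numpy 2.4.6, scipy 1.17.1, pandas 2.3.3, anndata 0.12.19, scikit-learn 1.9.0 and matplotlib 3.10.9 were used. Gene positions came from GENCODE M21, which held 32158 of the gene identifiers (99.6%). The members and lists were chosen with earlier results of these data known. Genes named were the 10 members, the 10 pathway genes Igfbp2, Insr, Pappa, Pappa2, Stc1, Stc2, Irs2, Grb10, Ghr and H19, up to 8 others past 2-fold in both libraries, and the 3 most similar genes of each member. Pik3r1 was named after its values were seen.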

Additional observations from a re-analysis of the deposited data

Results flagged for a closer look

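The barcodes removed by the filters or as doublet calls entered none of the main comparisons. Of these, 140 in MGJ and 222 in MGJ2 were doublet calls, which entered only the alternative that kept them. The removed barcodes held transcripts of the 10 genes above a limit set at 3 UMIs, given below in CPM. Passing so low a limit shows only that counts were present. In the 975 removed barcodes of MGJ the 10 genes summed to 1762.7 CPM (interval 1720.2 to 1806), where the limit was 0.811 and kept cells had 2085 CPM. In the 425 removed barcodes of MGJ2 they summed to 276.9 CPM (258 to 296), where the limit was 0.992 and kept cells had 456. In the removed barcodes the interval lay wholly above the kept-cell level for Igfbp3 (88.2 against 47.9 CPM) and Igfbp5 (133 against 121) in MGJ, and for Igf1r (184 against 166) in MGJ2. It lay wholly below for Igfbp4, Igfbp6 and Igfbp7 in MGJ, and for Igf1, Igfbp3, Igfbp4, Igfbp5, Igfbp7 and Irs1 in MGJ2. Igfbp7 had 857 against 1186 in MGJ and 11.2 against 122 in MGJ2. No interval was computed for the kept-cell levels.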

How the results depend on the processing

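Under 19 alternatives, 332 of the ratios and shares moved beyond their counting intervals, 358 did not and 10 reversed, and the cause was not tested. Of the ratios of chondrocyte-like cells against all other cells in MGJ, 114 moved and 44 did not. Restricting the other cells to stromal and vascular ones turned the chondrocyte-like ratios of MGJ2 to 0.212 for Igf1, 0.125 for Igfbp5 and 0.703 for Igfbp7, and gave 0 genes higher in MGJ and 1 higher and 4 lower in MGJ2. Keeping doublet calls and a resolution of 2 turned Igfbp5 in chondrocyte-like cells of MGJ2 to 0.653 and 0.644, and in hypertrophic-like cells to 5.35 and 4.53. Naming each cell by its own score gave 12.7 there. Leaving out the Rtl3 sub-cluster, chosen after seeing the data, gave 0.820 and 5.25 for Igfbp5 in these comparisons and left 4 genes lower in hypertrophic-like cells of each library, without Igf1 in MGJ and without Igfbp5 and Irs1 in MGJ2. Under these 4 settings 1 gene was higher in hypertrophic-like cells of MGJ2, and 3 were lower when doublet calls were kept. With doublet calls kept, a resolution of 2, cells named by their own score or each library clustered alone, 1 gene was higher in chondrocyte-like cells of MGJ. Genes lower in chondrocyte-like cells of MGJ2 numbered 2 at 10% mitochondrial UMIs, 3 with cells named by their own score and 0 with the neutrophil-like level subtracted. Cells named by their own score left 3 genes lower in hypertrophic-like cells of MGJ. Of the further pathway genes, 2 were higher in hypertrophic-like cells of MGJ with a minimum of 5 UMIs or none, and 4 lower in chondrocyte-like cells of MGJ2 with none. The other 125 counts stayed within 1.5-fold. Leaving out the sub-clusters with neutrophil markers, also chosen so, changed none of the 8 counts of the 10 genes. Classes of MGJ2 under 50 cells and 148 Igf2 UMIs limit that library. No paired analysis was possible because the libraries carry no group or replicate number.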

Other observations

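Igfbp5 and Igfbp2 are neighbours on chromosome 1, 5.46 kb apart, as are Igfbp3 and Igfbp1 on chromosome 11, 3.54 kb apart. In fibroblast-like cells of MGJ, Igfbp5 had 12908 UMIs and Igfbp2 67. Among chondrocyte-like sub-clusters of MGJ, H19 ranged from 66.8 CPM in the Col10a1 sub-cluster to 694 in cycling cells, while Igf2 was 22.8 and 77.1 there. The Mmp13 sub-cluster had the highest Igf2 (132) beside 107 H19 CPM. In the 52 B cell-like cells of MGJ, Igfbp5 stood at 106 CPM (54.6 to 184.5) on 12 UMIs, and in the 448 of MGJ2 at 0.648 on 1 UMI.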
